A study of Mus musculus with 28 samples.

Results

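Genes whose symbol is Gpr followed by a digit are a naming class of G protein-coupled receptors, most of them orphans when named, that is, receptors for which no ligand was known. The deposited tables held 73 such genes among 14711 genes in all. They were chosen by symbol alone, although earlier results of these data, among them the fall of Gpr12 after kainic acid, were already known.

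RNA was measured in mouse hippocampal CA1 tissue of C57BL/6 mice aged 3 to 4 weeks, 6 h after kainic acid (KA), a glutamate receptor agonist that provokes seizures, or PBS. All mice carried 1 Rpl22-HA allele (LSL-Rpl22-HA/+), which tags ribosomes in cells that express Cre. Cre came either from CaMK2a-Cre/+, which drives it in excitatory neurons, or from PV-Cre/+, which drives it in parvalbumin-positive interneurons. Tagged ribosomes were pulled down with an anti-HA antibody (IP), and the matching tissue lysate without pull-down is the input. The 8 groups were CaMK2a IP after KA and after PBS, CaMK2a input after KA and after PBS, PV IP after KA and after PBS, and PV input after KA and after PBS. Each CaMK2a group had 3 libraries from pools of 4 mice, and each PV group had 4 libraries from pools of 9 to 10 mice. The amount of RNA was 20 ng for each CaMK2a library and 2.5 ng for each PV library. Line and amount of RNA therefore cannot be told apart in comparisons between the lines.

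A G protein-coupled receptor spans the membrane, and an active receptor hands its signal to a G protein whose Gs form raises cyclic AMP and whose Gi form lowers it. Several members do so without a ligand: Gpr3, Gpr6 and Gpr12 keep Gs active whenever they are present on a cell. Others mark cell types of the brain, such as Gpr37l1 in astrocytes, Gpr17 in cells of the oligodendrocyte lineage and Gpr34 in microglia. In bulk samples of this kind, fewer cells of a type and less RNA per cell cannot be told apart.

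The 28 libraries held 6.06 to 15.8 M counts of reads on coding genes. Most markers of the tagged cells were higher in their own pull-down. After PBS, 5 of 6 interneuron markers were called higher in PV IP than in PV input, all but Gad2. Of 6 pyramidal markers, 5 were called higher in CaMK2a IP than in its input and Slc17a7 was called lower (−0.41 on the log2 scale). The summed level of 6 interneuron markers, among them Pvalb, was 2622 to 3293 CPM (counts scaled to 1e6 per library) in PV IP against 892 to 1032 CPM in PV input after PBS, and 177 to 224 CPM in CaMK2a IP against 731 to 782 CPM in CaMK2a input. The summed level of 6 pyramidal markers was 9958 to 11409 CPM in CaMK2a IP against 8447 to 9585 CPM in CaMK2a input, and 4230 to 5318 CPM in PV IP against 9002 to 9790 CPM in PV input. Astrocyte markers remained at 1331 to 1986 CPM in CaMK2a IP against 7864 to 7917 CPM in CaMK2a input, and at 4556 to 6261 CPM in PV IP against 8867 to 10922 CPM in PV input. No marker list was at 0 in any group. Replicate 4 of the PV inputs stood apart from replicates 1 to 3 in both treatments. In PV IP the scaling factor (TMM) of replicate 4 also stood apart. It was 1.05 against 0.907 to 0.918 in replicates 1 to 3 after KA, and 1.13 against 0.946 to 0.974 after PBS.

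Of the 73 members, 39 had enough counts to be tested in all 8 comparisons of 2 groups, 16 in some of them and 18 in none. The untested members included Gpr1, Gpr110, Gpr111, Gpr112, Gpr128, Gpr132, Gpr15, Gpr152, Gpr160, Gpr171, Gpr179, Gpr18, Gpr20, Gpr50, Gpr55, Gpr65 and Gpr82. A member is called changed where edgeR's quasi-likelihood test gave a Benjamini-Hochberg adjusted p under 0.05 over all genes tested. A further 10 members were tested and not called in any of these 8 comparisons as fitted, among them Gpr135, Gpr149, Gpr162, Gpr21, Gpr25, Gpr27, Gpr52 and Gpr6.

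The highest levels per transcript length, in the deposited RPKM, were found in a small set of neuronal and glial members. In CaMK2a IP after PBS, Gpr22 led with 19.8 ± 0.983 RPKM, followed by Gpr39 with 18.3 ± 0.794 RPKM, Gpr158 with 12.6 ± 0.652 RPKM and Gpr123 with 11.8 ± 0.810 RPKM (SD, n = 3). In PV IP after PBS, Gpr123 led with 16.6 ± 1.61 RPKM, followed by Gpr158 with 9.13 ± 0.408 RPKM, Gpr22 with 7.36 ± 1.25 RPKM, Gpr39 with 6.99 ± 1.61 RPKM and Gpr83 with 6.08 ± 1.84 RPKM (SD, n = 4). Within 1 SD, Gpr22 and Gpr39 overlapped in the CaMK2a IP, as did Gpr158 and Gpr123, and in the PV IP the ranges of 1 SD of Gpr22, Gpr39 and Gpr83 overlapped. In both inputs after PBS the highest member was the astrocyte gene Gpr37l1, with 24.2 ± 2.04 RPKM in the CaMK2a input (SD, n = 3) and 12.2 ± 7.38 RPKM in the PV input (SD, n = 4), where replicate 4 reached 23.2 RPKM, replicates 1 to 3 had 7.85 to 9.29 RPKM, and Gpr158, at 12.1 ± 1.18 RPKM, lay within that spread. After KA, Gpr3 entered the first 5 places in every group, at 9.88 ± 2.08 RPKM in CaMK2a IP, 18.2 ± 4.67 RPKM in CaMK2a input (SD, n = 3 each), 12.8 ± 5.51 RPKM in PV IP and 9.30 ± 5.71 RPKM in PV input (SD, n = 4 each). In PV input after KA, Gpr3 had 17.6 RPKM in replicate 4 and 5.42 to 8.66 RPKM in replicates 1 to 3.

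The promoters of the members whose RNA moved in every fraction after KA, and of their family relative Gpr6, are shown because cyclic AMP and activity act on many promoters through the CRE motif (TGACGTCA, or its core TGACG) and the AP-1 motif (TGANTCA). Each sequence is the RefSeq GRCm38.p6 window from 250 bases before to 50 bases after an annotated transcript start, 5′ to 3′ on the gene's strand, with matches to these motifs on either strand in capitals. All of these genes lie on the minus strand: Gpr3 at chr4:133212487-133212786, Gpr6 at chr10:41072241-41072540, Gpr12 at chr5:146584355-146584654 and chr5:146585190-146585489, and Gpr85 at chr6:13839893-13840192.
Gpr3: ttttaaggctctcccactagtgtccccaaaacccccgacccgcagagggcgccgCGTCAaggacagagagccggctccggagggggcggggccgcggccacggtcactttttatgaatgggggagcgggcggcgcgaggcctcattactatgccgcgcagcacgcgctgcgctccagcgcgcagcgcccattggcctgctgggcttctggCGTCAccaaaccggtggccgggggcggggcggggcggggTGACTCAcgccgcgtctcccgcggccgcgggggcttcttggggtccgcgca
Gpr6: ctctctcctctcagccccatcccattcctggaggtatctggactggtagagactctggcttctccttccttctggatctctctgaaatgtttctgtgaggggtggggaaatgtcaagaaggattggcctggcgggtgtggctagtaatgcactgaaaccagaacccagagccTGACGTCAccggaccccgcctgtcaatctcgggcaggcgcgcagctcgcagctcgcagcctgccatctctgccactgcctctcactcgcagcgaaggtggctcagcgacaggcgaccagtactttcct
Gpr12, start 1: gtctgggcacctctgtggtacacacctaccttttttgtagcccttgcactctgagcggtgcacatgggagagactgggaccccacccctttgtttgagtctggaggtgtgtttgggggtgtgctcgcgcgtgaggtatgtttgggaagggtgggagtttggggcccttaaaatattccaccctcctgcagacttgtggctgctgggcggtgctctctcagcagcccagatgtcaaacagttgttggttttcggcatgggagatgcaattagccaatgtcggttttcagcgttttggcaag
Gpr12, start 2: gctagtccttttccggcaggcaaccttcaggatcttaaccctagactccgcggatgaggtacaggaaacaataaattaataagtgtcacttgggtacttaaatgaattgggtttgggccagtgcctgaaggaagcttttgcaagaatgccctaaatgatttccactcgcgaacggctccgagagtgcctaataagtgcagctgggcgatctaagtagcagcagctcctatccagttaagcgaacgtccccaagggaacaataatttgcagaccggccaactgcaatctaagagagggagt
Gpr85: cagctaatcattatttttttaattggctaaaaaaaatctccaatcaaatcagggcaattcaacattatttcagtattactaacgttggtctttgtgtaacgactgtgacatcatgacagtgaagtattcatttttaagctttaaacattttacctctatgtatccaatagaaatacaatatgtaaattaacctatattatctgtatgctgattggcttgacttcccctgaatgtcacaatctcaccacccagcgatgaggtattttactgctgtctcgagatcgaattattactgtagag

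The Gpr3 window held the core TGACG, read on the opposite strand as CGTCA, at positions −196 and −40 from the start, and an AP-1 match at −1. The Gpr6 window held the whole palindrome TGACGTCA at −78, which contains TGACG on both strands. Of the 51 members with a promoter found, only Gpr6 held this palindrome, and Gpr6 was not called in any of the 8 comparisons as fitted. A link between these motifs and the changes after KA was not tested. Neither Gpr12 window held any of these motifs, nor did the Gpr85 window. Promoters were found for 51 of the 73 members, in 61 windows. TGACG was in 24.6% of the members' windows, 26.8% of the 14191 windows of genes in the deposited tables and 20.8% of the 32851 windows of all genes. TGACGTCA was in 1.64%, 2.57% and 1.79%, and TGANTCA in 13.1%, 5.98% and 7.81%. TATAAA, the core of the TATA box, was in 8.20%, 8.88% and 13.6%.

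Across the 4 comparisons of KA with PBS, 30 members were called at least once and 3 in all 4. Gpr3 and Gpr85 were higher after KA in every fraction of both lines, and Gpr12 was lower in every one. In CaMK2a IP, 18 of 43 tested members were called, 12 higher and 6 lower, where 35.1% of all genes tested were called, 19.8% higher and 15.3% lower. In CaMK2a input, 24 of 51 were called, 13 higher and 11 lower, against a background of 35% (19.3% higher and 15.7% lower). In PV IP, 5 of 49 were called, 4 higher and 1 lower, against a background of 4.85% (4.05% higher and 0.801% lower). In PV input, 9 of 51 were called, 5 higher and 4 lower, against a background of 11.6% (8.21% higher and 3.36% lower). With the replicate number as a block, PV input had 15 called, the 9 and also Gpr22, Gpr56, Gpr116 (0.59, adjusted p = 0.017) and Gpr137c (0.34, adjusted p = 0.017) higher and Gpr52 (−2.35, adjusted p = 0.022) and Gpr62 (−0.60, adjusted p = 0.016) lower. With replicates 1 to 3 alone PV input also had 15 called, the 9 and Gpr22, Gpr56, Gpr115 (1.94, adjusted p = 0.0098), Gpr116 (0.71, adjusted p = 0.030), Gpr123 (0.26, adjusted p = 0.029) and Gpr137c (0.35, adjusted p = 0.029), all higher, and PV IP also had Gpr84 (4.65, adjusted p = 0.027) and Gpr158 (0.52, adjusted p = 0.049). The median log2 change of the members tested was 0.13 in CaMK2a IP, 0.13 in CaMK2a input, 0.18 in PV IP and 0.13 in PV input, beside 0.01, −0.02, −0.02 and −0.02 over all genes tested. The common biological coefficient of variation was 0.148 in CaMK2a IP, 0.126 in CaMK2a input, 0.443 in PV IP and 0.272 in PV input, so the counts of calls do not compare the lines.

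Gpr3, which raises cyclic AMP without a ligand, rose in every fraction. In CaMK2a IP it had 87.0, 57.1 and 82.2 CPM after KA against 2.83, 5.27 and 5.06 CPM after PBS. In CaMK2a input it had 156, 91.2 and 124 CPM after KA against 8.33, 7.52 and 7.80 CPM after PBS. Every KA library was above every PBS library, and the log2 differences were 4.16 ± 0.25 (SE) in the IP (17.9-fold, adjusted p = 3.5e-06) and 3.97 ± 0.18 in the input (15.7-fold, adjusted p = 2.1e-11). In PV IP Gpr3 had 73.3, 106, 76.4 and 145 CPM after KA against 11.6, 14.4, 9.57 and 22.6 CPM after PBS. In PV input it had 43.5, 44.8, 69.5 and 121 CPM after KA against 3.60, 5.91, 5.70 and 7.68 CPM after PBS. Here too the groups did not overlap, and the log2 differences were 2.75 ± 0.32 in the IP (adjusted p = 2.7e-05) and 3.56 ± 0.36 in the input (adjusted p = 5.7e-05). The rise did not pass the test of a difference between CaMK2a IP and PV IP, where the log2 difference of the rises was 1.38 ± 0.45 with an adjusted p of 0.52. Of the exonic bases of Gpr3, 7.5% lie on the opposite strand from exons of Cd164l2, which also rose, by 2.96 ± 0.47 on the log2 scale in CaMK2a IP (adjusted p = 0.0011) and 2.71 ± 0.38 in CaMK2a input (adjusted p = 2.6e-05). Whether counting used strand is not given in the sources used here, so reads in that stretch could belong to either gene. Exons of 20 members overlap a gene on the opposite strand, and this is described here for only some of them.

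Gpr12, the close relative of Gpr3, moved the other way. It had 15.1, 16.0 and 12.8 CPM in CaMK2a IP after KA against 68.3, 65.6 and 63.1 CPM after PBS. In CaMK2a input it had 11, 14.8 and 15.3 CPM after KA against 54.5, 54.1 and 66.8 CPM after PBS. The groups were far apart in both fractions, with log2 differences of −2.16 ± 0.13 in the IP (4.47-fold lower, adjusted p = 3.1e-06) and −2.09 ± 0.16 in the input (4.26-fold lower, adjusted p = 1.3e-08). In PV IP Gpr12 had 24.5, 12.2, 14.2 and 12.3 CPM after KA against 26.9, 43.3, 61.0 and 39.2 CPM after PBS, and the groups came close, since the highest KA library lay just under the lowest PBS library. In PV input it had 14.6, 9.79, 7.80 and 9.55 CPM after KA against 44.2, 51.9, 40.4 and 50 CPM after PBS, with no overlap. The log2 differences were −1.46 ± 0.33 in PV IP (adjusted p = 0.013) and −2.19 ± 0.22 in PV input (adjusted p = 4.6e-05). The PV IP call ended without PBS replicate 3, where the log2 difference was −1.24 and the adjusted p 0.066.

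The summed level of the 6 pyramidal markers was lower after KA in 3 fractions and overlapped in PV IP. It was 7974 to 9383 CPM in CaMK2a IP after KA against 9958 to 11409 CPM after PBS, and 7244 to 7633 CPM in CaMK2a input after KA against 8447 to 9585 CPM after PBS. In the PV line it was 3439 to 6587 CPM in the IP after KA against 4230 to 5318 CPM after PBS, and 7866 to 8525 CPM in the input after KA against 9002 to 9790 CPM after PBS. Of these markers 3, 3, 1 and 2 of 6 were called lower in CaMK2a IP, CaMK2a input, PV IP and PV input, and none higher. The summed level of the 6 interneuron markers was higher after KA in 3 fractions and likewise overlapped in PV IP. It was 288 to 408 CPM in CaMK2a IP after KA against 177 to 224 CPM after PBS, and 1024 to 1091 CPM in CaMK2a input after KA against 731 to 782 CPM after PBS. In the PV line it was 3179 to 4784 CPM in the IP after KA against 2622 to 3293 CPM after PBS, and 1065 to 1347 CPM in the input after KA against 892 to 1032 CPM after PBS. Of these 3, 4, 1 and 1 of 6 were called higher in the same order of fractions. The part of these cells in the changes of Gpr12 and of the other members was not tested.

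Gpr6, the remaining member of this trio, was near the limit of detection. Its levels were 0.889 to 3.44 CPM in CaMK2a IP after KA against 0.257 to 0.836 CPM after PBS, and 0 to 5.20 CPM in PV IP after KA against 0 to 0.288 CPM after PBS. For KA against PBS it was tested only in the inputs, with a log2 difference of 1.04 ± 0.62 in CaMK2a input (adjusted p = 0.21) and 1.48 ± 0.93 in PV input (adjusted p = 0.36).

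Gpr85 belongs to the SREB family, orphan receptors with very conserved sequences that are expressed in brain. It had 110, 78.1 and 93.2 CPM in CaMK2a IP after KA against 47.7, 49.9 and 47.3 CPM after PBS, and 72.7, 58.3 and 49.8 CPM in CaMK2a input after KA against 28, 31.5 and 25.6 CPM after PBS. In PV IP it had 78.2, 115, 102 and 91.0 CPM after KA against 20.1, 22.5, 21.7 and 22.8 CPM after PBS. In PV input it had 90.3, 79.7, 111 and 109 CPM after KA against 33.2, 38.7, 33.6 and 32.6 CPM after PBS. All KA libraries were above all PBS libraries in each fraction, by 0.97 ± 0.13 on the log2 scale in CaMK2a IP (adjusted p = 0.00043), 1.09 ± 0.14 in CaMK2a input (adjusted p = 1.3e-05), 2.12 ± 0.22 in PV IP (adjusted p = 7.9e-06) and 1.47 ± 0.15 in PV input (adjusted p = 6.6e-05).

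The rise of Gpr85 was 4.34-fold in PV IP and 1.96-fold in CaMK2a IP. The log2 rise in CaMK2a IP minus that in PV IP was −1.16 ± 0.25 and did not pass the test in edgeR (adjusted p = 0.12). The same difference passed with DESeq2 (−1.19, adjusted p = 0.0041) and with PV replicates 1 to 3 alone (−1.26, adjusted p = 0.040). Of the other SREB members, Gpr173 fell in the CaMK2a line, to 11.8, 14.2 and 11.4 CPM in the IP after KA against 24.5, 21.9 and 23.1 CPM after PBS (log2 difference −0.89 ± 0.15, adjusted p = 0.0014) and by 0.77 ± 0.17 on the log2 scale in the input (adjusted p = 0.0014). In the PV line Gpr173 overlapped between treatments. Gpr27 stayed at 3.47 CPM or less in every library and was not called.

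**Figure D1:**
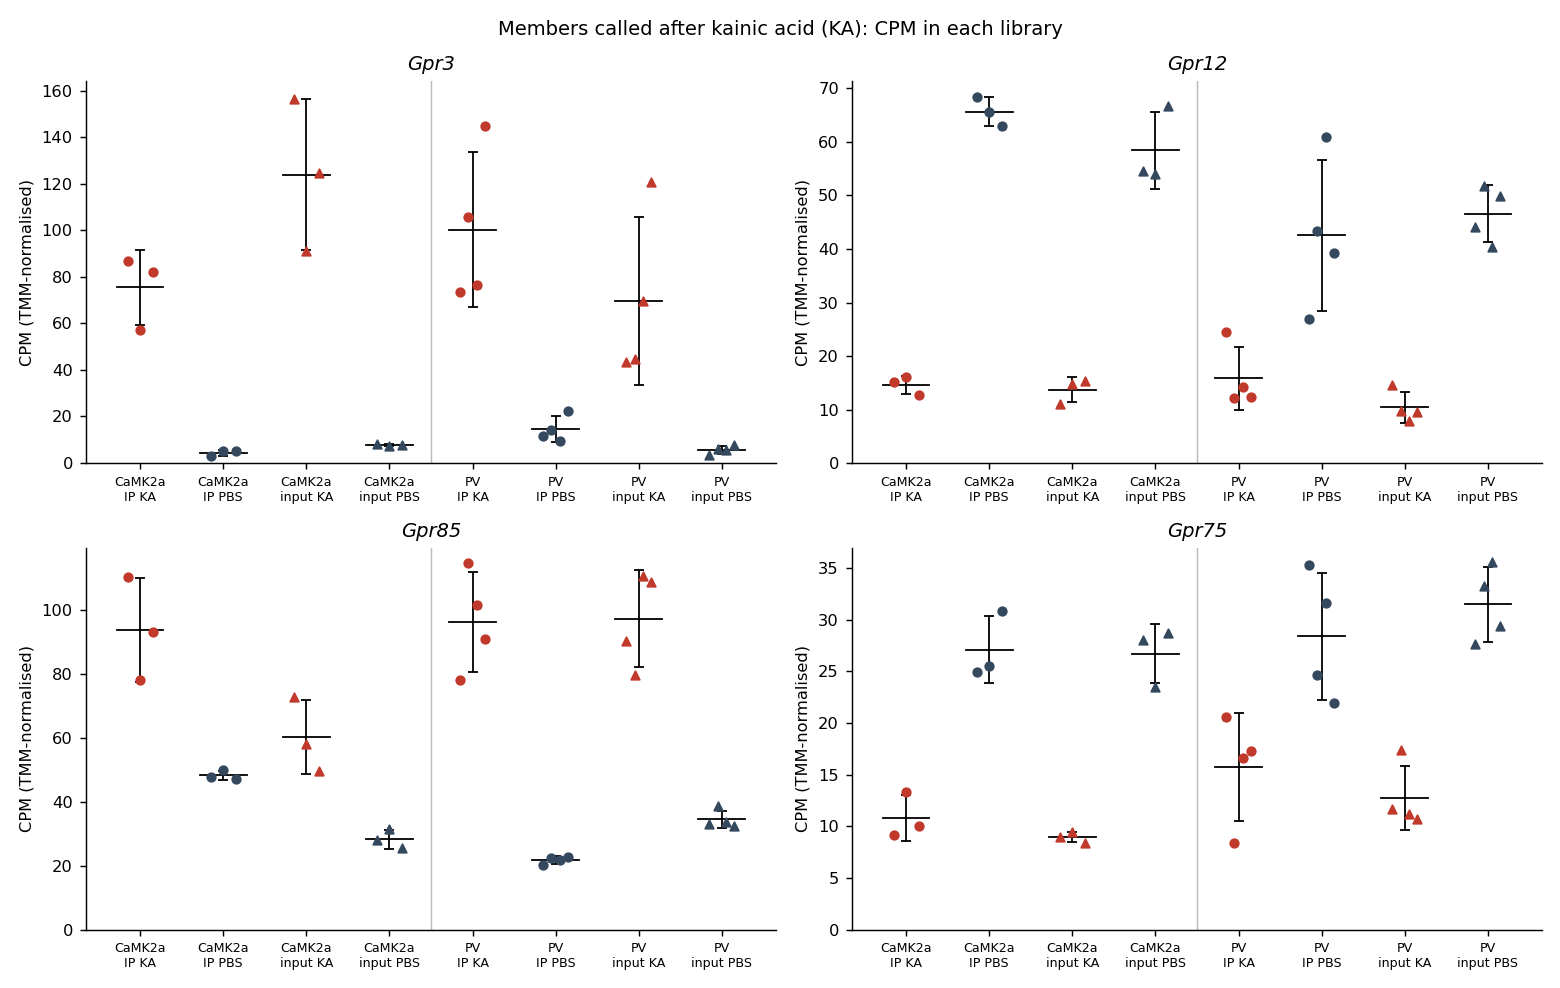
Level of Gpr3, Gpr12, Gpr85 and Gpr75 as CPM, on a linear axis from 0, in each library of the 8 groups. Circles are IP and triangles input, red is KA and dark grey PBS, and bars give the mean and SD; Gpr3 and Gpr85 lie higher after KA in every fraction, Gpr12 lower, and Gpr75 lower with a smaller gap in PV IP.

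Gpr75, an orphan receptor, fell in 3 fractions. It had 9.13, 13.3 and 9.98 CPM in CaMK2a IP after KA against 24.9, 25.5 and 30.9 CPM after PBS, and 8.94, 9.44 and 8.44 CPM in CaMK2a input after KA against 28, 23.5 and 28.7 CPM after PBS. In PV input it had 11.6, 17.4, 11.2 and 10.7 CPM after KA against 27.7, 33.3, 35.6 and 29.4 CPM after PBS. The log2 differences were −1.31 ± 0.18 (adjusted p = 0.0004), −1.57 ± 0.17 (adjusted p = 1.3e-06) and −1.33 ± 0.21 (adjusted p = 0.0013). In PV IP the KA libraries, at 8.37 to 20.6 CPM, were also all below the PBS libraries, at 22 to 35.3 CPM, but the log2 difference of −0.87 ± 0.33 was not called (adjusted p = 0.18). On the same strand, 4.3% of the exonic bases of Gpr75 also belong to Asb3, which fell by 0.67 ± 0.23 on the log2 scale in CaMK2a input (adjusted p = 0.032).

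Among 22 other brain orphan receptors, 5 rose and 1 fell of 17 tested in CaMK2a IP, 4 rose and 4 fell of 18 in CaMK2a input, 1 rose of 18 in PV IP, and 1 rose and 1 fell of 19 in PV input, beside 35.1%, 35%, 4.85% and 11.6% of all genes called. Gpr176, known as a Gz-coupled receptor of the suprachiasmatic clock, had 36.0, 47.4 and 42.4 CPM in CaMK2a IP after KA against 19.9, 20.8 and 20.0 CPM after PBS, a log2 difference of 1.06 ± 0.13 (adjusted p = 0.00026). The groups did not overlap. In CaMK2a input the difference was smaller, 0.47 ± 0.15 (adjusted p = 0.018), and its call ended without KA input replicate 2 or PBS input replicate 1 or 2 (adjusted p 0.067 to 0.085). The difference between fractions itself was 0.55 ± 0.19 for Gpr176 and was not called (adjusted p = 0.38).

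Gpr151, a receptor best known from the habenula, was low but rose in 3 fractions. It had 6.88, 6.89 and 7.62 CPM in CaMK2a IP after KA against 3.09, 2.70 and 2.53 CPM after PBS (log2 difference 1.36 ± 0.25, adjusted p = 0.0024). In CaMK2a input it had 3.93, 4.50 and 2.15 CPM after KA against 0.583, 0.272 and 0.661 CPM after PBS (2.82 ± 0.49, adjusted p = 0.00023). In PV input it had 2.97, 6.06, 4.15 and 3.00 CPM after KA against 0.562, 0.634, 0.114 and 1.03 CPM after PBS (2.69 ± 0.56, adjusted p = 0.0088). No library of one treatment reached the other in these fractions, whereas in PV IP, at 0 to 3.56 CPM after KA and 0 to 0.793 CPM after PBS, the groups overlapped. Gpr139, likewise known from the habenula, rose in CaMK2a input, with 3.22, 2.64 and 7.36 CPM after KA against 1.42, 1.09 and 0.925 CPM after PBS (1.89 ± 0.45, adjusted p = 0.0035).

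Gpr22, the most abundant member of the CaMK2a IP, rose in PV IP, where it had 257, 182, 269 and 200 CPM after KA against 118, 110, 157 and 94.5 CPM after PBS. The groups did not overlap, and the log2 difference was 0.90 ± 0.20 (adjusted p = 0.014). This call ended without KA IP replicate 1 or 3 or PBS IP replicate 1 or 2, with adjusted p of 0.052 to 0.063. In PV input the levels overlapped, with 243, 237, 246 and 153 CPM after KA against 172, 188, 176 and 110 CPM after PBS. There the difference of 0.42 ± 0.20 was not called (adjusted p = 0.21) but was with the replicate number as a block (0.42, adjusted p = 0.00026) and with replicates 1 to 3 alone (0.42, adjusted p = 0.00067). In the CaMK2a line the differences were 0.18 ± 0.10 in the IP and 0.13 ± 0.12 in the input, neither called.

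Smaller rises were called in CaMK2a IP for Gpr26 (0.56 ± 0.13, adjusted p = 0.0095) and Gpr45 (0.61 ± 0.20, adjusted p = 0.036), both orphan receptors, and both ended when single libraries were left out. For Gpr26 this was KA IP replicate 3 (0.49, adjusted p = 0.050), and for Gpr45 KA IP replicate 2 and PBS IP replicates 1 and 3 (adjusted p 0.10 to 0.14). The Gpr45 call also ended with upper-quartile factors (0.51, adjusted p = 0.069). Falls in CaMK2a input were called for Gpr165 (−0.75 ± 0.19, adjusted p = 0.0053), Gpr62 (−0.62 ± 0.18, adjusted p = 0.012) and Gpr161 (−0.32 ± 0.11, adjusted p = 0.037), a receptor of the primary cilium that restrains hedgehog signalling. Gpr62 lost its call without KA input replicate 1 or PBS input replicate 1 or 2 (adjusted p 0.050 to 0.061), and Gpr161 without any library but KA input replicate 1 (adjusted p 0.050 to 0.25). Gpr142, a tryptophan receptor of pancreatic islets, fell to 3.18, 2.89 and 3.76 CPM in CaMK2a IP after KA, against 8.29, 9.26 and 7.40 CPM after PBS (−1.33 ± 0.24, adjusted p = 0.0024).

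Of the 15 receptors for lipids, protons and nucleotides and of immune cells, 1 rose and 1 fell of 4 tested in CaMK2a IP, 4 rose and 3 fell of 9 in CaMK2a input, 1 rose of 9 in PV IP, and 2 rose and 1 fell of 9 in PV input, beside the same shares of all genes. Gpr84, a receptor for medium-chain fatty acids on myeloid cells, had the largest log2 rise of the members called in CaMK2a input. It had 39.9, 24.9 and 52.8 CPM in CaMK2a input after KA against 1.33, 2.27 and 1.59 CPM after PBS, and 21.2, 9.79, 25.8 and 40.4 CPM in PV input after KA against 1.46, 1.48, 3.31 and 2.77 CPM after PBS. The groups did not overlap, and the log2 differences were 4.49 ± 0.30 (22.5-fold, adjusted p = 2e-09) and 3.38 ± 0.44 (10.4-fold, adjusted p = 0.00033). In the pull-downs it was lower, at 6.35, 0.555 and 3.11 CPM in CaMK2a IP after KA against 1.16, 0.386 and 0.292 CPM after PBS, where the groups overlapped. The call of that difference of 2.30 ± 0.80 (adjusted p = 0.047) ended without any single library but KA IP replicate 2 (adjusted p 0.053 to 0.16). It also ended with upper-quartile factors (2.20, adjusted p = 0.055). In PV IP the levels were 8.34, 4.14, 19.9 and 10.6 CPM after KA against 0, 0.0783, 1.17 and 3.17 CPM after PBS. That difference was not called (3.22 ± 1.00, adjusted p = 0.085) but was with DESeq2 (adjusted p = 0.0064). Of the exonic bases of Gpr84, 39.5% overlap an annotated gene on the opposite strand, Gm49482, from which its reads may not be told apart.

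Gpr35, a receptor on immune and epithelial cells for which kynurenic acid is a proposed ligand, was likewise higher after KA, at lower levels. It had 5.37, 2.75 and 5.37 CPM in CaMK2a input after KA against 0.167, 0.815 and 0.132 CPM after PBS (3.48 ± 0.55, adjusted p = 9.7e-05). In PV IP it had 11.4, 0.940, 5 and 4.83 CPM after KA against 0.423, 0.0783, 0 and 0.432 CPM after PBS (4.47 ± 1.09, adjusted p = 0.023), and in PV input 4.79, 1.63, 4.02 and 3.46 CPM after KA against 1.12, 0.106, 0.342 and 0 CPM after PBS (3.15 ± 0.82, adjusted p = 0.026). The groups did not overlap in these 3 fractions. The PV IP call ended without KA IP replicate 1 or PBS IP replicate 2 or 3 (adjusted p 0.054 to 0.11), and the PV input call without KA input replicate 1 or 3 or PBS input replicate 2 or 3 (adjusted p 0.075 to 0.088). In CaMK2a IP it was at 0.429 CPM or less after KA and 0.195 CPM or less after PBS and was not tested.

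Gpr34, a lysophosphatidylserine receptor of microglia, went the other way in CaMK2a input, with 2.38, 2.85 and 1.07 CPM after KA against 4.83, 6.25 and 4.76 CPM after PBS (−1.29 ± 0.35, adjusted p = 0.0077). Gpr183, a receptor for oxysterols that guides immune cells, had 9.30, 4.72 and 5.52 CPM after KA against 1.42, 1.27 and 4.10 CPM after PBS there (1.60 ± 0.41, adjusted p = 0.0056), a call that ended without KA input replicate 1 (1.25, adjusted p = 0.057). Gpr4, a proton sensor of endothelium, had 7.03, 4.50 and 8.44 CPM after KA against 2.91, 1.36 and 2.64 CPM after PBS (1.52 ± 0.35, adjusted p = 0.0026). In each of these 3 genes the groups did not overlap.

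The markers of those cells moved beside them as follows. The summed level of 6 microglia markers in CaMK2a input was 325 to 405 CPM after KA against 301 to 339 CPM after PBS, with 2 markers called higher and 2 lower, and in PV input it was 178 to 326 CPM after KA against 195 to 300 CPM after PBS. The summed level of 4 endothelial markers in CaMK2a input was 42.5 to 50.3 CPM after KA against 22.6 to 29.4 CPM after PBS, with 3 of 4 called higher. The part of these cells in the changes of Gpr84, Gpr35, Gpr34, Gpr183 and Gpr4 was not tested.

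Gpr39, a zinc-sensing receptor that is abundant in CA1, fell modestly. It had 132, 126 and 110 CPM in CaMK2a IP after KA against 180, 163 and 175 CPM after PBS (−0.48 ± 0.10, adjusted p = 0.0045), and 74.0, 65.6 and 65.3 CPM in CaMK2a input after KA against 108, 107 and 102 CPM after PBS (−0.62 ± 0.10, adjusted p = 0.00015). In PV input it had 67.4, 67.0, 72.5 and 101 CPM after KA against 116, 113, 113 and 99.5 CPM after PBS. The groups overlapped there only through replicate 4, and the difference of −0.55 ± 0.16 (adjusted p = 0.040) lost its call without any one of replicates 1 to 3 of either treatment (adjusted p 0.099 to 0.12). On the opposite strand, 39.9% of the exonic bases of Gpr39 overlap Lypd1, which fell by 0.51 ± 0.09 on the log2 scale in CaMK2a IP, by 0.67 ± 0.10 in CaMK2a input and by 0.55 ± 0.12 in PV input, each called. The values of Gpr39 and Lypd1 may therefore share reads. Gpr146 fell in CaMK2a input, to 18.4, 15.8 and 16.3 CPM after KA against 26.9, 27.6 and 28.3 CPM after PBS (−0.71 ± 0.15, adjusted p = 0.0012).

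Of the 14 adhesion receptors listed under their older names, 3 rose and none fell in each CaMK2a fraction, of 8 tested in the IP and 9 in the input, against 35.1% and 35% of all genes, and none was called in the PV fractions, of 8 tested in each, against 4.85% and 11.6%. With PV replicates 1 to 3 alone, Gpr56, Gpr115, Gpr116 and Gpr123 were called higher in PV input. Gpr56, now Adgrg1, an adhesion receptor of neural progenitors and glia, had 33.9, 26.3 and 28.6 CPM in CaMK2a IP after KA against 13.4, 16.6 and 14.2 CPM after PBS (1.02 ± 0.16, adjusted p = 0.00085). In CaMK2a input it had 141, 123 and 171 CPM after KA against 87.1, 82.6 and 92.3 CPM after PBS (0.73 ± 0.12, adjusted p = 0.00014). The groups did not overlap in either fraction. In PV input its difference of 0.41 ± 0.36 was not called, but was with the replicate block (adjusted p = 0.0084) and with replicates 1 to 3 alone (0.44, adjusted p = 0.035).

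Gpr133, now Adgrd1, had 11.6, 6.00 and 9.66 CPM in CaMK2a IP after KA against 1.99, 1.16 and 2.53 CPM after PBS, with no overlap (2.24 ± 0.36, adjusted p = 0.0011). In CaMK2a input, at 8.58, 4.39 and 9.66 CPM after KA against 3.50, 4.62 and 4.63 CPM after PBS, the groups overlapped. That rise was smaller (0.82 ± 0.30, adjusted p = 0.043), and its call ended without any single library but KA input replicate 2 (adjusted p 0.073 to 0.17). It also ended with upper-quartile factors (0.76, adjusted p = 0.058). Gpr124, now Adgra2, which takes part in Wnt signalling in brain endothelium, rose in CaMK2a input, with 11.8, 10.5 and 9.97 CPM after KA against 5.08, 7.88 and 6.74 CPM after PBS (0.72 ± 0.22, adjusted p = 0.018). Its call ended without KA input replicate 1 (0.65, adjusted p = 0.064) or PBS input replicate 1 (0.56, adjusted p = 0.11). Gpr115 was called in CaMK2a IP (2.10 ± 0.73, adjusted p = 0.049) with 0.794, 8.55 and 2.36 CPM after KA against 1.22, 0.643 and 0.779 CPM after PBS. The groups overlapped, and the call ended without any single library but KA IP replicate 1 (adjusted p 0.073 to 0.32), most of all without KA replicate 2 (0.81, adjusted p = 0.32). The Gpr115 call also ended with upper-quartile factors (adjusted p = 0.058).

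Gpr155 and Gpr137c encode proteins of intracellular membranes rather than cell-surface receptors. Gpr155, a cholesterol sensor of lysosomes, had 41.8, 46.4 and 39.2 CPM in CaMK2a IP after KA against 73.9, 86.6 and 90.4 CPM after PBS (−0.97 ± 0.12, adjusted p = 0.00023), and fell by 0.88 ± 0.14 on the log2 scale in CaMK2a input (adjusted p = 7.4e-05). In PV input its difference of −0.63 ± 0.18 (adjusted p = 0.043) lost its call without KA replicate 2 or 3 or PBS replicate 1, 2 or 3 (adjusted p 0.087 to 0.14). Gpr137c rose in CaMK2a IP, with 136, 79.6 and 105 CPM after KA against 73.0, 65.5 and 73.3 CPM after PBS (0.60 ± 0.17, adjusted p = 0.021). This call ended without KA replicate 3 or any one PBS replicate (adjusted p 0.061 to 0.082). Of the glial pair linked with prosaposin, Gpr37l1 had 21.3, 11.8 and 13.2 CPM in CaMK2a IP after KA against 7.33, 13.3 and 7.01 CPM after PBS, which overlapped, and was not called (0.77 ± 0.30, adjusted p = 0.074). It was called there with DESeq2 (0.76, adjusted p = 0.048) and without KA or PBS IP replicate 2 (0.93 and 1.11, adjusted p = 0.026 each). In CaMK2a input its difference of 0.22 ± 0.11 (adjusted p = 0.14) was called without KA input replicate 2 (0.34, adjusted p = 0.014). In the PV fractions it was not called, at 0.18 ± 0.42 in the IP (adjusted p = 0.89) and −0.11 ± 0.38 in the input (adjusted p = 0.90). Gpr37 fell in CaMK2a input by 0.38 ± 0.12 on the log2 scale (adjusted p = 0.024), a call lost without KA replicate 3 or PBS replicate 1 or 2 (adjusted p 0.053 to 0.12).

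**Figure D2:**
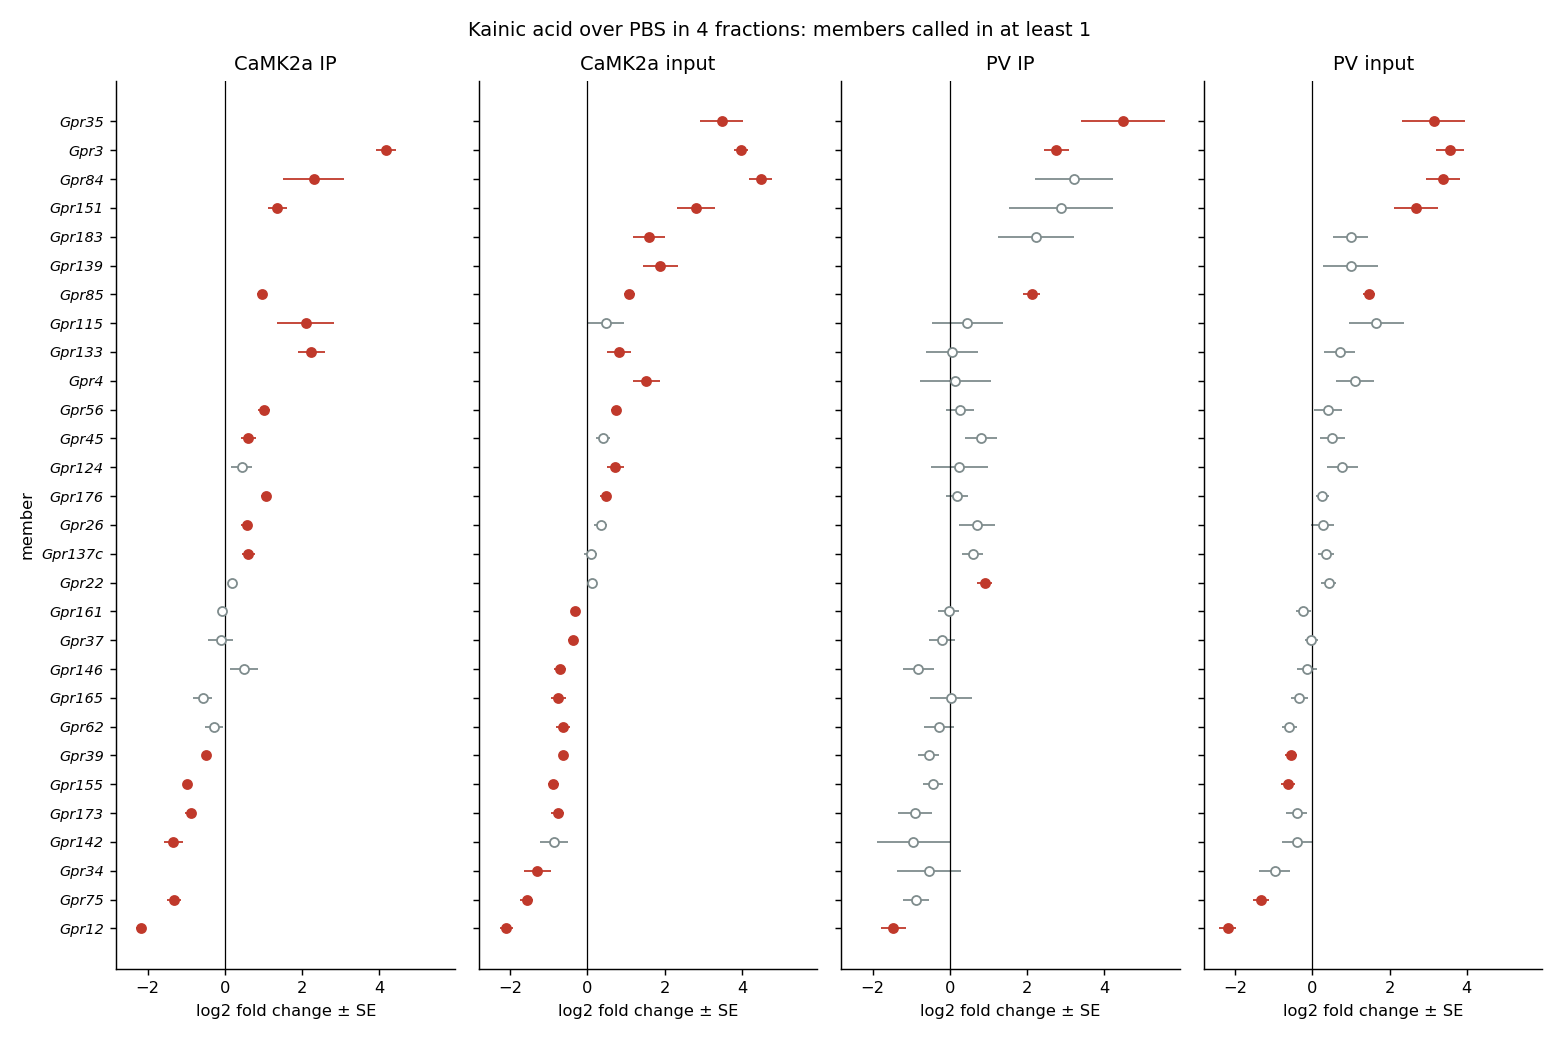
Log2 difference, KA over PBS, with its standard error for 29 of the 30 members called in at least 1 fraction, 1 panel for each of the 4 fractions. Filled red points passed the test in that fraction and open points did not; Gpr3, Gpr85 and Gpr12 are filled in all 4 panels, and the standard errors are wider in the PV panels.

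No member was called in the tests of whether the KA effect differed between IP and input. For CaMK2a, 0 of 54 were called in edgeR, where 0.103% of all genes were (0.043% higher and 0.0602% lower), with 7 members at an unadjusted p under 0.05 and 0 called by DESeq2. For PV, 0 of 54 were called, where 0.0253% of all genes were (0.00843% higher and 0.0169% lower), with 1 member at an unadjusted p under 0.05 and 0 called by DESeq2. For the effect in CaMK2a IP minus that in PV IP, 0 of 55 were called in edgeR, where 0.0934% of all genes were (0.0679% higher and 0.0255% lower), with 6 members at an unadjusted p under 0.05. DESeq2 called 1 there, Gpr85. The changes listed above for one fraction only are therefore not shown to be absent from the others.

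The comparison of IP with input sets RNA pulled down with tagged ribosomes beside RNA of the whole tissue lysate. The cells that hold a member's RNA and its loading on ribosomes cannot be told apart in it. After PBS, 32 of 51 tested members differed between CaMK2a IP and input, 10 higher and 22 lower in the IP, where 64.2% of all genes were called, 32.6% higher and 31.6% lower. In the PV line 13 of 48 differed, 6 higher and 7 lower, against a background of 18.5% (10.6% higher and 7.98% lower). After KA the counts were 30 of 50 in the CaMK2a line, 11 higher and 19 lower, against 50.1% (24.3% higher and 25.8% lower). Between PV IP and PV input after KA 8 of 49 were called, 4 higher and 4 lower in the IP, against 11% (6.85% higher and 4.11% lower). The members' median log2 difference after PBS was −0.35 in each line, beside 0.02 over all genes for PV and −0.01 for CaMK2a. The IP-over-input difference of the PV line minus that of the CaMK2a line passed the test in 23 of 55 members, 14 higher and 9 lower, where 27.5% of all genes did, 13.3% higher and 14.3% lower.

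Gpr22 was higher in the CaMK2a pull-down. It had 295, 292 and 330 CPM in CaMK2a IP against 99.7, 98.6 and 109 CPM in CaMK2a input after PBS, a log2 difference of 1.60 ± 0.07 (3.02-fold, adjusted p = 4.6e-12), and the same log2 difference after KA (1.60 ± 0.15, adjusted p = 1.2e-05). The PV line gave 118, 110, 157 and 94.5 CPM in the IP against 172, 188, 176 and 110 CPM in the input after PBS, which overlapped. That difference of −0.40 ± 0.19 was not called (adjusted p = 0.18), but was with the replicate block (−0.39, adjusted p = 0.022). PV minus CaMK2a gave −2.04 ± 0.25 (adjusted p = 1.3e-05).

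Gpr161 was also higher there, with 217, 200 and 202 CPM in CaMK2a IP against 94.8, 77.4 and 82.2 CPM in CaMK2a input after PBS (1.30 ± 0.08, adjusted p = 2.2e-10). The PV line gave 44.7, 70.9, 65.3 and 41.6 CPM in the IP against 114, 92.2, 97.1 and 86.9 CPM in the input (−0.78 ± 0.19, adjusted p = 0.012). Neither pair overlapped, and the difference between lines was −2.13 ± 0.24 (adjusted p = 5.2e-06). Gpr39 had 180, 163 and 175 CPM in CaMK2a IP against 108, 107 and 102 CPM in CaMK2a input (0.73 ± 0.06, adjusted p = 3.1e-08), and was lower in PV IP than in PV input (−0.65 ± 0.16, adjusted p = 0.012). The lines differed by −1.43 ± 0.19 (adjusted p = 2.4e-05).

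Gpr158, a class C receptor that anchors regulators of G protein signalling at synapses, had 283, 306 and 315 CPM in CaMK2a IP against 189, 193 and 187 CPM in CaMK2a input (0.68 ± 0.06, adjusted p = 3.5e-08). For PV the difference was −0.30 ± 0.14 (adjusted p = 0.17, called with the replicate block at 0.033), and the lines differed by −1.04 ± 0.18 (adjusted p = 0.0003). Gpr101 overlapped between CaMK2a IP and input and differed between lines by −1.61 ± 0.41 (adjusted p = 0.0066). Gpr151 was also higher in CaMK2a IP than in input after PBS (2.49 ± 0.45, adjusted p = 0.00012). Its difference between lines, −3.72 ± 1.32 (adjusted p = 0.044), lost its call without any one of 11 of the 14 libraries (adjusted p 0.055 to 0.12), and that of Gpr137c, −0.73 ± 0.26 (adjusted p = 0.049), likewise without any one of 11 (adjusted p 0.052 to 0.13).

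Gpr83, a receptor for the neuropeptide PEN, was higher in the PV pull-down. It had 86.0, 92.3, 60.2 and 105 CPM in PV IP against 18.7, 17.8, 19.0 and 21.0 CPM in PV input after PBS, and 38.4, 30.6, 62.6 and 87.9 CPM in PV IP against 17.2, 16.5, 11.6 and 14.2 CPM in PV input after KA. No IP library was as low as any input library, and the log2 differences were 2.20 ± 0.20 after PBS (4.59-fold, adjusted p = 6.1e-06) and 1.94 ± 0.33 after KA (adjusted p = 0.0018). In the CaMK2a line it had 7.39, 9.52 and 10.7 CPM in the IP against 18.0, 13.0 and 17.7 CPM in the input after PBS (−0.81 ± 0.19, adjusted p = 0.0011). The lines differed by 2.95 ± 0.29 (7.71-fold, adjusted p = 1.1e-06). After KA its PV IP levels overlapped those after PBS, with a log2 difference of −0.67 ± 0.30 (adjusted p = 0.29) that was called only without KA replicate 4 (−1.0, adjusted p = 0.038).

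Gpr157, Gpr176, Gpr123, Gpr125 and Gpr3 were also higher in PV IP than in PV input after PBS. Gpr157, reported in primary cilia, was at 4.23 to 14.4 CPM in PV IP against 0.713 to 2.97 CPM in PV input, a log2 difference of 2.27 ± 0.63 (adjusted p = 0.021) that ended without IP replicate 3 (1.63, adjusted p = 0.094) or input replicate 1 or 2 (adjusted p 0.070 and 0.066). After KA the difference of 3.01 ± 0.59 (adjusted p = 0.0045) was called without each library. Gpr176 had 51.1, 67.5, 76.5 and 53.1 CPM in PV IP against 24.1, 25.9, 31.2 and 33.6 CPM in PV input (1.14 ± 0.20, adjusted p = 0.0012), and the lines differed by 1.44 ± 0.25 (adjusted p = 0.00033). Gpr123, now Adgra1, had 269, 328, 318 and 225 CPM in PV IP against 166, 168, 172 and 145 CPM in PV input (0.84 ± 0.15, adjusted p = 0.0012). The groups of both genes stood apart. For Gpr123 the lines differed by 0.61 ± 0.19 (adjusted p = 0.021), a call that ended without CaMK2a PBS input replicate 3 (0.55, adjusted p = 0.065) or IP replicate 1 (0.56, adjusted p = 0.071). Gpr123 was also called higher in CaMK2a IP than in CaMK2a input after PBS. That call was lost with upper-quartile factors (0.06, adjusted p = 0.49) and with DESeq2 (0.17, adjusted p = 0.072). It was likewise lost without CaMK2a input replicate 1 or 2 or IP replicate 3 (adjusted p 0.096 to 0.22). Gpr125, now Adgra3, was higher in PV IP (0.77 ± 0.21, adjusted p = 0.019, lost without input or IP replicate 2, adjusted p 0.073 and 0.062) and lower in CaMK2a IP (−0.70 ± 0.16, adjusted p = 0.0011), and the lines differed by 1.42 ± 0.28 (adjusted p = 0.0010).

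Gpr3 after PBS was higher in PV IP than in PV input, at 11.6, 14.4, 9.57 and 22.6 CPM against 3.60, 5.91, 5.70 and 7.68 CPM, and lower in CaMK2a IP than in CaMK2a input, at 2.83, 5.27 and 5.06 CPM against 8.33, 7.52 and 7.80 CPM. Neither pair overlapped, and the log2 differences were 1.38 ± 0.37 in the PV line (adjusted p = 0.018) and −0.87 ± 0.25 in the CaMK2a line (adjusted p = 0.0065). The PV call ended without input replicate 1, 2 or 3 or IP replicate 4 (adjusted p 0.051 to 0.063). The lines differed by 2.16 ± 0.49 (adjusted p = 0.0032). After KA the CaMK2a difference was −0.74 ± 0.21 (adjusted p = 0.012), lost without input replicate 1 (−0.54, adjusted p = 0.085), and the PV difference was 0.57 ± 0.33 (adjusted p = 0.30), called with the replicate block (0.64, adjusted p = 0.025).

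Gpr12 was not called between IP and input in either line or treatment. After PBS its levels were 63.1 to 68.3 CPM in CaMK2a IP against 54.1 to 66.8 CPM in CaMK2a input (0.19 ± 0.09, adjusted p = 0.077) and 26.9 to 61.0 CPM in PV IP against 40.4 to 51.9 CPM in PV input (−0.10 ± 0.23, adjusted p = 0.81). The CaMK2a difference was called without input replicate 3 (0.28, adjusted p = 0.011). Gpr85 leaned to the CaMK2a pull-down (0.78 ± 0.10 after PBS, adjusted p = 3.5e-06), and its difference between lines was −1.47 ± 0.20 (adjusted p = 4.6e-05). Its lower level in PV IP than in PV input after PBS (−0.63 ± 0.19, adjusted p = 0.032) lost its call without any one of replicates 1 to 3 of IP or input (adjusted p 0.050 to 0.12), and after KA the 2 fractions of the PV line overlapped (0.03 ± 0.19, adjusted p = 0.94).

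**Figure D3:**
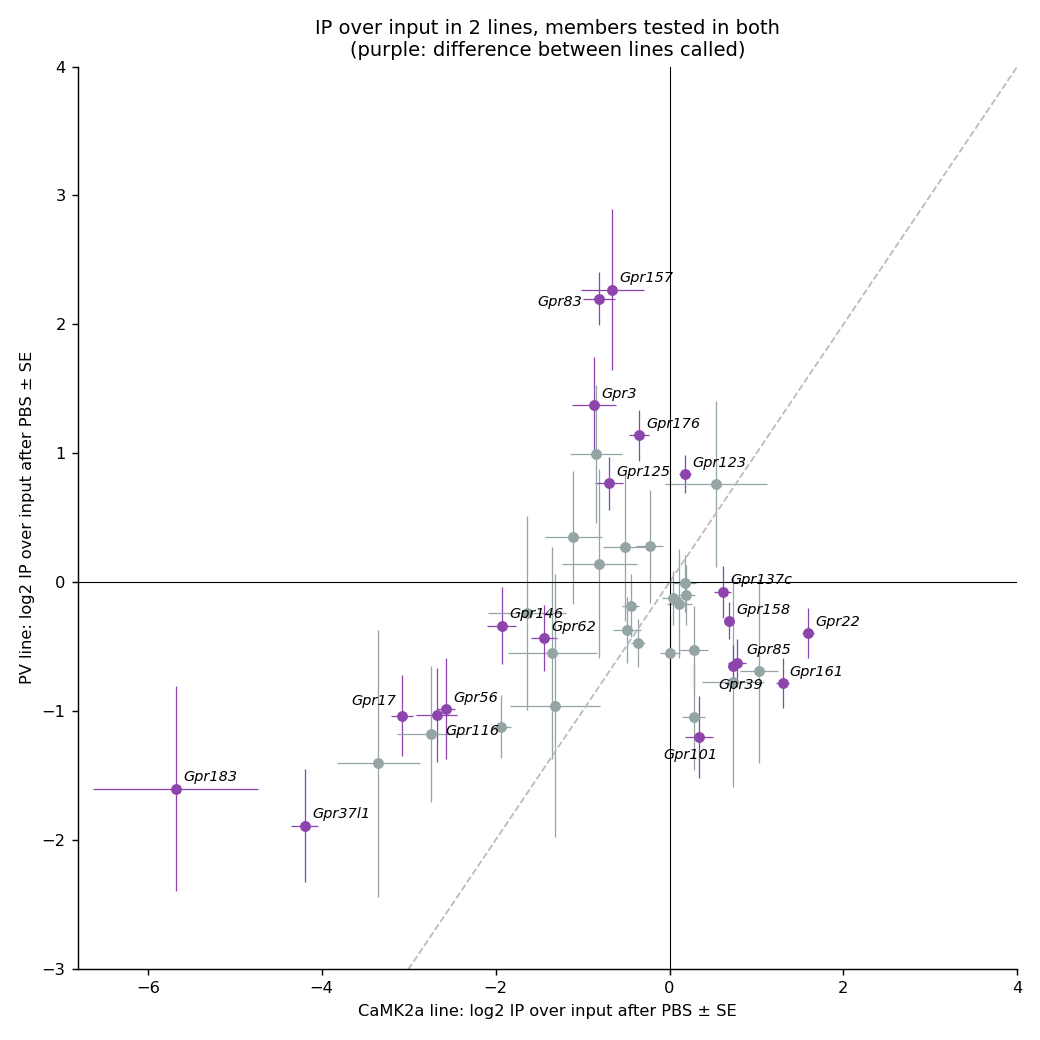
Log2 difference of IP over input after PBS in the PV line (vertical axis) against the CaMK2a line (horizontal axis) for 44 members tested in both. Purple points are the 20 of them whose difference between lines passed the test; Gpr83 and Gpr157 lie at the top, Gpr22 and Gpr161 at the right, and Gpr37l1 and Gpr17 at the lower left. Bars are SE, the dashed line marks equal values in the lines, and the point of Gpr183 rests on 1 count in CaMK2a IP.

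Several members known from glia and vessels, among them Gpr37l1, Gpr37, Gpr17, Gpr56, Gpr116, Gpr34 and Gpr182, were lower in the CaMK2a pull-down than in its input after PBS, and Gpr37l1, Gpr37 and Gpr17 also in the PV pull-down. Gpr124 was not called in the CaMK2a line (−0.51 ± 0.25, adjusted p = 0.085). It was called lower there with upper-quartile factors (−0.63, adjusted p = 0.036) and without input replicate 1 (−0.68, adjusted p = 0.041). Gpr37l1, an astrocyte receptor linked with prosaposin, had 7.33, 13.3 and 7.01 CPM in CaMK2a IP against 158, 152 and 180 CPM in CaMK2a input after PBS (−4.20 ± 0.15, 18.3-fold lower, adjusted p = 1.2e-12). The PV line gave 25.0, 19.4, 7.13 and 41.4 CPM in the IP against 61.0, 72.2, 65.5 and 155 CPM in the input (−1.89 ± 0.44, adjusted p = 0.0082). Neither pair overlapped, although replicate 4 was the highest in both PV fractions. The lines differed by 2.21 ± 0.60 (adjusted p = 0.011). Its relative Gpr37, found in oligodendrocytes, was lower in the IP by 1.94 ± 0.11 on the log2 scale in the CaMK2a line (adjusted p = 2.6e-10) and by 1.12 ± 0.24 in the PV line (adjusted p = 0.0051).

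Gpr17, a receptor of the oligodendrocyte lineage, had 10.4, 16.6 and 12.9 CPM in CaMK2a IP against 109, 111 and 111 CPM in CaMK2a input after PBS (−3.08 ± 0.12, adjusted p = 3.2e-12). The PV line gave 64.0, 27.5, 50.7 and 77.1 CPM in the IP against 92.3, 89.9, 90.9 and 187 CPM in the input (−1.03 ± 0.31, adjusted p = 0.034). The PV fractions did not overlap, but the call ended without input replicate 4 (−0.69, adjusted p = 0.095) or IP replicate 1, 2 or 3 (adjusted p 0.055 to 0.082). The lines differed by 1.96 ± 0.43 (adjusted p = 0.0027).

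Gpr56 was lower in CaMK2a IP by 2.57 ± 0.10 on the log2 scale (adjusted p = 3.2e-12), and the endothelial receptor Gpr116, now Adgrf5, by 2.68 ± 0.24 (adjusted p = 3.7e-08). After PBS in the PV line neither was called (−0.98 ± 0.39, adjusted p = 0.10 for Gpr56 and −1.03 ± 0.37, adjusted p = 0.066 for Gpr116). Both were with the replicate block, Gpr56 at −1.03 (adjusted p = 0.00048) and Gpr116 at −1.16 (adjusted p = 0.015), and with DESeq2, PV replicates 1 to 3 alone or without IP replicate 4 (adjusted p 0.014 to 0.040 for Gpr56 and 0.026 to 0.036 for Gpr116). Their differences between lines, 1.51 ± 0.51 for Gpr56 (adjusted p = 0.036) and 1.55 ± 0.50 for Gpr116 (adjusted p = 0.029), lost the call without any one of 11 of the 14 libraries for Gpr56 (adjusted p 0.052 to 0.084) and of 5 for Gpr116 (adjusted p 0.052 to 0.096). Gpr146 was lower in CaMK2a IP by 1.93 ± 0.17 (adjusted p = 3e-08) and differed between lines by 1.56 ± 0.38 (adjusted p = 0.0056). Gpr62 was lower by 1.44 ± 0.15 in CaMK2a IP (adjusted p = 3.3e-07), with a difference between lines of 0.95 ± 0.32 (adjusted p = 0.035) that was lost without any one of 8 libraries (adjusted p 0.055 to 0.088).

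The receptors of microglia and endothelium were low in the CaMK2a pull-down. Gpr34 had 0.450, 1.42 and 0.681 CPM in CaMK2a IP against 4.83, 6.25 and 4.76 CPM in CaMK2a input after PBS (−2.74 ± 0.40, adjusted p = 1.2e-05). Gpr182, an endothelial receptor for chemokines, had 0.321, 1.03 and 0.195 CPM in the IP against 3.83, 4.53 and 6.35 CPM in the input (−3.35 ± 0.48, adjusted p = 1.1e-05). Gpr183 had 1 count in all in the 3 CaMK2a IP libraries after PBS, against 17, 14 and 31 counts in the inputs, so a fold would rest on a single read. After KA, Gpr84 was lower in CaMK2a IP than in CaMK2a input by 3.60 ± 0.51 on the log2 scale (adjusted p = 0.00014) and Gpr35 by 4.00 ± 0.56 (adjusted p = 0.00013). In the PV line after KA neither was called, Gpr84 with −1.13 ± 0.48 (adjusted p = 0.15, called with the replicate block at 0.016) and Gpr35 with 0.72 ± 0.67 (adjusted p = 0.55).

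Of the other members, the Golgi protein Gpr107 was lower in CaMK2a IP than in input after PBS (−0.45 ± 0.10, adjusted p = 0.0012), as were Gpr133 (−1.10 ± 0.33, adjusted p = 0.0075), Gpr4 (−1.64 ± 0.45, adjusted p = 0.0044) and Gpr155 (−0.36 ± 0.08, adjusted p = 0.00091). Gpr142 (1.03 ± 0.22, adjusted p = 0.00056) and Gpr137c (0.61 ± 0.10, adjusted p = 3.1e-05) were higher. Gpr165 was lower by 0.49 ± 0.16 (adjusted p = 0.013), a call lost without input replicate 1 (adjusted p = 0.056), and Gpr176 by 0.35 ± 0.12 (adjusted p = 0.014). Gpr126 (−1.35 ± 0.51, adjusted p = 0.029) lost its call without input replicate 1 or 2 or IP replicate 3 (adjusted p 0.086 to 0.13), and Gpr153 (−0.85 ± 0.30, adjusted p = 0.022) without replicate 1 or 3 of either fraction (adjusted p 0.073 to 0.089). After KA, Gpr124 was lower in CaMK2a IP (−0.84 ± 0.25, adjusted p = 0.016), a call lost without input replicate 1 (adjusted p = 0.059), and Gpr137c was higher (1.07 ± 0.23, adjusted p = 0.0022). Gpr101 was higher there too (0.68 ± 0.21, adjusted p = 0.019, lost without input replicate 3 or IP replicate 1, adjusted p 0.052 to 0.068). Gpr64, called in no other comparison, was higher in CaMK2a IP than in input after KA, with a log2 difference of 1.60 ± 0.51 (adjusted p = 0.020), lost without input replicate 1 or 3 or IP replicate 2 (adjusted p 0.052 to 0.093). Gpr149 passed the test between lines (2.86 ± 0.94, adjusted p = 0.031) and lost the call without any CaMK2a input library, CaMK2a IP replicate 2 or 3, or PV input replicate 1 (adjusted p 0.055 to 0.10). The test between lines for Gpr183 rested on that 1 count in CaMK2a IP, and its call (adjusted p = 0.048) ended without any one of 10 libraries (adjusted p 0.057 to 0.16).

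With the replicate number as a block, Gpr155 (−0.50, adjusted p = 0.011) and Gpr26 (−1.06, adjusted p = 0.013) were also called lower in PV IP than in input after PBS, and after KA Gpr161 (−0.59, adjusted p = 0.019) and Gpr39 (−0.69, adjusted p = 0.048). With PV replicates 1 to 3 alone, Gpr126 was also called lower in PV IP after KA (−4.06, adjusted p = 0.033), Gpr3 higher (0.75, adjusted p = 0.048), and Gpr176 lost its call there (1.07 ± 0.29, adjusted p = 0.029 with all replicates and 0.077 without replicate 4 of both fractions). The Gpr176 call also ended without any one input library or IP replicate 2 or 4 (adjusted p 0.050 to 0.085). After PBS Gpr101 lost its call (−1.20 ± 0.32, adjusted p = 0.017 with all replicates and 0.060 with replicates 1 to 3), as it did without input replicate 1 or IP replicate 2 (adjusted p 0.054 and 0.050). Between lines, replicates 1 to 3 alone added Gpr153 (2.35, adjusted p = 0.0087), Gpr37 (0.82, adjusted p = 0.030), Gpr45 (−1.08, adjusted p = 0.032), Gpr26 (−1.23, adjusted p = 0.039) and Gpr64 (−3.11, adjusted p = 0.041), and ended the calls of Gpr116 (1.33, adjusted p = 0.051) and Gpr183 (adjusted p = 0.10). In the CaMK2a line after KA the block added Gpr146 (−0.87, adjusted p = 0.0051) and ended the call of Gpr126 (−1.21, adjusted p = 0.067).

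The values above stand beside those of the glial marker lists. Over the lists, the median log2 difference of IP over input after PBS in the PV line and the CaMK2a line was −1.0 and −3.35 for astrocytes, −0.68 and −2.54 for oligodendrocytes, −1.29 and −3.08 for oligodendrocyte precursors, −1.22 and −3.53 for microglia, and −0.96 and −2.49 for endothelium. The PV minus CaMK2a difference had a median of 1.80 over 5 astrocyte markers, all called, and of 1.91 over 4 oligodendrocyte markers, all called. Beside them stand differences between lines of 2.21 for Gpr37l1, 1.96 for Gpr17 and 2.95 for Gpr83. The part of these cells in the differences between lines was not tested.

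**Figure D4:**
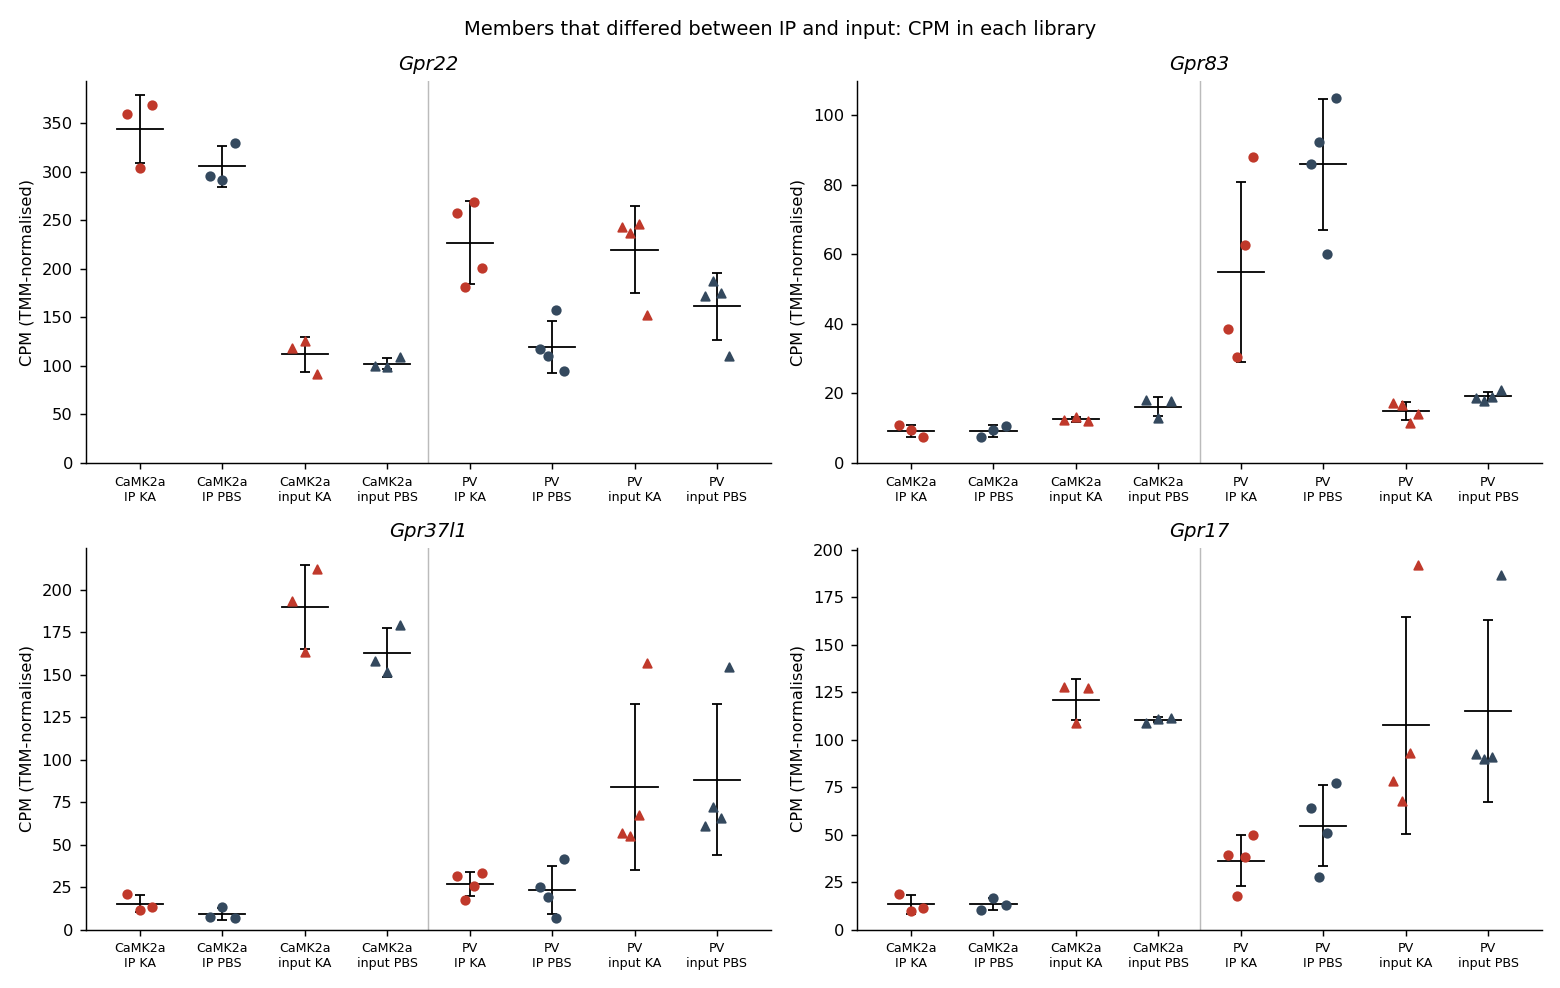
Level of Gpr22, Gpr83, Gpr37l1 and Gpr17 as CPM, on a linear axis from 0, in each library of the 8 groups, with mean and SD. Circles are IP and triangles input, and red is KA and dark grey PBS. Gpr22 is higher in CaMK2a IP than in CaMK2a input, Gpr83 higher in PV IP than in PV input, and Gpr37l1 and Gpr17 lower in both pull-downs, with replicate 4 as the highest PV input library.

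The machinery downstream of these receptors was followed in a list of 48 G protein subunits, adenylyl cyclases, protein kinase A subunits, phosphodiesterases, receptor kinases, arrestins and Psap, of which 40 were tested and the other 8 not analysed here. After KA, 6 rose and 12 fell in CaMK2a IP (35.1% of all genes called), 8 rose and 9 fell in CaMK2a input (35%), 2 rose in PV IP (4.85%), and 2 rose and 3 fell in PV input (11.6%). In both PV fractions these counts lay near the share of all genes. Prkar2a, a regulatory subunit of the cyclic AMP-dependent kinase, rose by 1.97 ± 0.26 on the log2 scale in CaMK2a IP (adjusted p = 0.00031), 1.87 ± 0.14 in CaMK2a input (adjusted p = 1.4e-08) and 1.45 ± 0.17 in PV input (adjusted p = 0.00015). Pde4b, which breaks down cyclic AMP, rose by 1.04 ± 0.12 in CaMK2a input (adjusted p = 3.2e-06), 1.37 ± 0.29 in PV IP (adjusted p = 0.0094) and 0.96 ± 0.19 in PV input (adjusted p = 0.0053). The adenylyl cyclases Adcy1, Adcy2 and Adcy9 fell in CaMK2a IP, CaMK2a input and PV input, Adcy1 by 0.71 ± 0.08, 0.69 ± 0.10 and 0.59 ± 0.12 on the log2 scale. After PBS, 19 of the list were higher and 11 lower in CaMK2a IP than in input, where 64.2% of all genes were called, and 3 were higher and 7 lower in PV IP, against 18.5%. Gnal, a Gs-type alpha subunit, was higher in PV IP by 1.66 ± 0.14 (adjusted p = 2.8e-06). The list differed between lines in 14 members, 4 higher and 10 lower for PV minus CaMK2a, against 27.5% of all genes.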

How the data were processed

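RNA was extracted from pull-down and input of 28 libraries, amplified, and sequenced as 75 bp single-end reads, per the labels' protocols. The authors deposited raw counts per gene and library beside RPKM per library, mean CPM, fold change as a ratio, and p-values with FDR from pairwise comparisons. Reads were aligned to mm10 with BWA and compared with edgeR, per the submitters' processing notes, with versions not given in the sources used here. Only coding genes with at least 4 reads were listed, per the file headers and names. The deposited CPM, ratio and p-value columns were made by the authors and are not used for the results, and the deposited RPKM, made by the authors from counts and gene length, is used for levels between genes. Whether counting used strand is not given in the sources used here.

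The counts as deposited were joined over the 6 deposited comparisons into 1 table of 14711 genes, and libraries shared between them held identical counts. Library totals of 6.06 to 15.8 M counts limit the precision of the low genes. CPM printed here was computed with TMM factors over the 28 libraries. Each comparison was fitted with edgeR 4.0.16 in R 4.3.3 (TMM, filterByExpr with a minimum count of 10, quasi-likelihood test, Benjamini-Hochberg over all genes tested, threshold 0.05) on the groups compared, and differences of effects on 4 groups. Where a group had few or no counts a log2 difference depends on the prior count of 0.125. The scripts were tested on simulated data. The libraries are labelled as biological replicates made from pools of mice.

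Members were all genes matching the symbol rule. Named with values were Gpr12 and Gpr37l1, in each comparison of 2 groups up to 8 rises and 8 falls by log2 fold change among called members with a mean log2 CPM of at least 0, members called in a difference of effects, and detected members of the role groups. The members and lists were chosen with earlier results of these data known. Other called members were named after their values were seen. A few members enter the fits and counts but are not reported here by name.

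Replicate numbers recur across groups. Over 8078 genes the deviations of same-numbered libraries correlated above 0.1 for every pair in CaMK2a input after KA and PBS (r 0.11 to 0.32), PV input after KA and PBS (0.29 to 0.81), and IP and input in CaMK2a after KA (0.21 to 0.36), PV after KA (0.19 to 0.60) and PV after PBS (0.16 to 0.67). Not every pair did so in the remaining comparisons. Between PV IP after KA and PV IP after PBS, only replicate 4 did (r 0.55). Alternatives were DESeq2 1.42.0, other scaling factors, other filters, the replicate block, PV replicates 1 to 3 alone, and each library left out. Columns of the deposited tables name the PBS libraries as hour 0, whereas the labels give 6 h after PBS. Promoters were taken from RefSeq GRCm38.p6 and gene overlaps from the GENCODE annotation.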

Additional observations from a re-analysis of the deposited data

Results flagged for a closer look

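In the PV groups of 4 libraries, 38 members were tested by Dixon's ratio at its 95% critical value. In 24 of 152 tests 1 library lay far from the other 3, and 10 of these concerned replicate 4. Chance gives about 1 in 20 for independent tests, but these tests share libraries. The share over all genes was not computed, so the count is not a result about the members. In PV input after KA, replicate 4 was apart for Gpr37l1 (157 CPM), Gpr22 (153 CPM), Gpr123 (137 CPM) and Gpr39 (101 CPM). In PV input after PBS it was apart for Gpr158 (220 CPM), Gpr17 (187 CPM), Gpr37l1 (155 CPM) and Gpr56 (96.0 CPM), and in PV IP after PBS for Gpr139 (3.46 CPM) and Gpr151 (0.793 CPM).

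The other libraries that stood apart were, in PV IP after KA, replicate 1 for Gpr123 (363 CPM), Gpr12 (24.5 CPM) and Gpr115 (5.32 CPM), replicate 2 for Gpr101 (32.0 CPM), and replicate 3 for Gpr137c (144 CPM) and Gpr139 (6.30 CPM). In PV IP after PBS they were replicate 1 for Gpr101 (16.5 CPM) and replicate 3 for Gpr157 (14.4 CPM) and Gpr37 (11.7 CPM). In PV input after KA they were replicate 1 for Gpr139 (4.53 CPM), replicate 2 for Gpr75 (17.4 CPM) and replicate 3 for Gpr182 (3.77 CPM) and Gpr64 (3.14 CPM). In PV input after PBS it was replicate 2 for Gpr85 (38.7 CPM).

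The difference of IP over input after PBS, PV line minus CaMK2a line, passed edgeR's test in 22 of the members described here. It was negative on the log2 scale for Gpr151 (−3.72), Gpr161 (−2.13), Gpr22 (−2.04), Gpr101 (−1.61), Gpr85 (−1.47), Gpr39 (−1.43), Gpr158 (−1.04) and Gpr137c (−0.73). It was positive for Gpr123 (0.61), Gpr62 (0.95), Gpr125 (1.42), Gpr176 (1.44), Gpr56 (1.51), Gpr116 (1.55), Gpr146 (1.56), Gpr17 (1.96), Gpr3 (2.16), Gpr37l1 (2.21), Gpr149 (2.86), Gpr157 (2.90), Gpr83 (2.95) and Gpr183 (4.02, which rests on 1 count in the 3 CaMK2a IP libraries).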

How the results depend on the processing

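The count of members called stayed within 1.5 times the reported count under 70 of 74 alternatives other than leaving out a library. For KA against PBS in PV input it was 9, but 15 with the replicate block (9 higher, 6 lower) and 15 with PV replicates 1 to 3 alone (11 higher, 4 lower). For the KA effect in CaMK2a IP minus that in PV IP it was 0, but 1 with DESeq2 and 1 with PV replicates 1 to 3 alone. Where replicate numbers paired the libraries, the block changed no call other than those given with the block in the results. With each library left out in turn, the counts ranged over 14 to 22 (KA in CaMK2a IP), 17 to 25 (CaMK2a input), 3 to 6 (PV IP), 6 to 11 (PV input), 20 to 29 (IP over input in CaMK2a after KA), 29 to 32 (CaMK2a after PBS), 6 to 8 (PV after KA), 9 to 15 (PV after PBS) and 16 to 25 (difference between lines), and stayed at 0 for the differences of KA effects. The 3 in PV IP arose without KA replicate 1 or PBS replicate 2 or 3. Over single called members, 1984 of 2230 alternatives kept the call, 246 lost it and 0 changed sign. Some single library left out ended 5 of 18 calls for KA in CaMK2a IP and 8 of 24 in CaMK2a input. In PV IP this held for 3 of 5 and in PV input for 3 of 9. For IP over input it held in CaMK2a for 14 of 30 after KA and 5 of 32 after PBS. In PV it held for 2 of 8 after KA and 6 of 13 after PBS. For the difference between lines it held for 8 of 23. Upper-quartile factors moved the median of all genes by −0.15 for IP over input in CaMK2a after KA, −0.13 after PBS and 0.13 for the difference between lines. The PV comparisons had a larger spread than the CaMK2a comparisons, and members near 1 CPM rest on few counts. The causes of lost calls were not tested.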
